A study of Mus musculus with 55 samples.

Results

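The Tfap2 genes encode the AP-2 transcription factors. The family was taken as the 5 members Tfap2a, Tfap2b, Tfap2c, Tfap2d and Tfap2e, found by Ensembl identifier among 47937 counted genes. It was followed through 16 bulk RNA-seq libraries of whole mouse islets and a chromatin-state map of WT islets. Tfap2b was already known to be among the largest rises in Eed-deficient islets at 25 weeks when the family was chosen. All values of members in KO are therefore descriptions. Where calls of members in KO are given, they report the output of the count models and are not an independent test. The libraries came from male C57B6/J mice and fell into 6 groups. WT islets (wild type) gave 3 libraries at 8 weeks and 3 at 25 weeks. HET islets, labelled only as heterozygous, gave 3 libraries at 8 weeks and 2 at 25 weeks. KO islets (βEedKO, labelled Eed -/-) gave 3 libraries at 8 weeks and 2 at 25 weeks. Eed is a core subunit of Polycomb repressive complex 2 (PRC2), the enzyme that writes H3K27me3. In βEedKO mice both floxed Eed alleles are removed by a Cre transgene under the insulin promoter (RIP-cre), which acts in β cells, whereas whole islets also hold α, δ, PP, vascular and other cells that keep Eed. Islets were cultured after isolation, and each KO library of 25 weeks pooled several animals.

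AP-2 factors bind GC-rich palindromic DNA as homodimers or heterodimers through a shared C-terminal helix-span-helix domain, and mostly activate transcription. Their known roles lie outside the endocrine pancreas. AP-2α (Tfap2a) acts in neural crest and epidermis, and AP-2β (Tfap2b) in crest derivatives, distal nephron and amacrine neurons. AP-2γ (Tfap2c) acts in trophectoderm, germ cell precursors and epidermis, AP-2δ (Tfap2d) in parts of midbrain and retina, and AP-2ε (Tfap2e) in the olfactory system. Developmental regulators of this kind are classical Polycomb targets, which carry H3K27me3 together with H3K4me3 (bivalent chromatin) in tissues that do not use them.

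Stretches of promoter DNA of 4 members are shown because they tie the family to the chromatin map. They are RefSeq promoters on GRCm38, each 300 bases long with 250 bases before the transcription start, written 5′ to 3′ on the gene's strand, with CpG dinucleotides in capitals. Tfap2e lies at chr4:126736220-126736519 on the minus strand and Tfap2b at chr1:19211804-19212103 on the plus strand. Tfap2a lies at chr13:40734871-40735170 on the minus strand and Tfap2d at chr1:19102772-19103071 on the plus strand.
Tfap2e: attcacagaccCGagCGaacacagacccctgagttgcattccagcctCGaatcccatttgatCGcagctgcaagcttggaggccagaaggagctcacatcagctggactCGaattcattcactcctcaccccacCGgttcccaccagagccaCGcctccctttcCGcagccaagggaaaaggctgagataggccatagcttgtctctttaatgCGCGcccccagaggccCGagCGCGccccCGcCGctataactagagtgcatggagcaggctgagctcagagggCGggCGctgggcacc
Tfap2b: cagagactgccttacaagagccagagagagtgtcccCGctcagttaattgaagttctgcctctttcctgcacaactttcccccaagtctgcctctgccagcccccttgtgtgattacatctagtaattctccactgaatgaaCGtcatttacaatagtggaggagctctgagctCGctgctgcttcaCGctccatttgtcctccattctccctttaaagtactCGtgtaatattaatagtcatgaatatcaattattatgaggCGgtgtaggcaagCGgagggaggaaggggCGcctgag
Tfap2a: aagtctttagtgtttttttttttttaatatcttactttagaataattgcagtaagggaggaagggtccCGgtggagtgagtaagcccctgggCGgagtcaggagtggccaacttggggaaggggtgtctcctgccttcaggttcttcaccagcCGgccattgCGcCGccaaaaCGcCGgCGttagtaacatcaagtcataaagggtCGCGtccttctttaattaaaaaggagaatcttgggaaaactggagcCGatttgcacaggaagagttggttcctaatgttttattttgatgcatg
Tfap2d: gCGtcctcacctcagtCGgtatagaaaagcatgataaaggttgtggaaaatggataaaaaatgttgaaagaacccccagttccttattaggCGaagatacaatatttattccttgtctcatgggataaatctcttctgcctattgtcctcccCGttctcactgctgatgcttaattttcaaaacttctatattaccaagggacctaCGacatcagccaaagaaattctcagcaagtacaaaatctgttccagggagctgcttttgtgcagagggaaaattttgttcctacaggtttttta
The Tfap2e stretch holds 17 CpG dinucleotides, that of Tfap2a 11, that of Tfap2b 8 and that of Tfap2d 5, beside a median of 7 over 32851 RefSeq promoters of the same length. The Tfap2e, Tfap2b and Tfap2a starts lay in state M of the deposited segmentation, which the study annotated as bivalent with high H3K27me3. The Tfap2d start lay in state R, annotated as mixed Polycomb and H3K9 methylation. By symbol, 7 promoters of 4 members were found, and Tfap2c was not matched. A downstream Tfap2a promoter with 15 CpG dinucleotides started in state L (bivalent with high H3K4me3), and a downstream Tfap2d promoter with 10 CpG dinucleotides in state M. An AP-2 palindrome of the letters GCCNNNGGC, which reads the same on both strands, was in 0 of the 7, beside 16.59% of all RefSeq promoters read. The Tfap2d stretches that start at 19102772 and 19102786 overlap. At that share a count of 0 in so few stretches is not a result about the family.

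At the annotated gene starts on GRCm38 the states were alike. Tfap2a spans 40715302 to 40738376 on chromosome 13, Tfap2b 19208914 to 19238576 on chromosome 1, Tfap2c 172549593 to 172558622 on chromosome 2 and Tfap2e 126716006 to 126736240 on chromosome 4. All 4 of these genes began in state M, which held 5.91% of 25640 counted protein-coding, lincRNA and antisense genes with a state. Tfap2d, from 19103022 to 19166346 on chromosome 1, began in state R, which held 0.924%. Its start lies 105.9 kb from that of Tfap2b. The unbroken run of state M around the start measured 16.4 kb at Tfap2a, 13.2 kb at Tfap2b, 9.6 kb at Tfap2c and 5.2 kb at Tfap2e. The median was 3.0 kb over 1515 genes that start in state M, among which these runs rank at percentiles 91.7, 89.3, 84.4 and 70.1. Around the Tfap2d start, within 5 kb on either side, state R covered 72.2% of the bases, state N (Polycomb repressed) 15.8% and state M 12.0%. Of the annotated transcript starts, 5 of 9 lay in state M at Tfap2a, 5 of 5 at Tfap2b, 6 of 6 at Tfap2c, 1 of 1 at Tfap2e and 0 of 2 at Tfap2d. The segmentation averaged its replicates and has no spread.

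**Figure D1:**
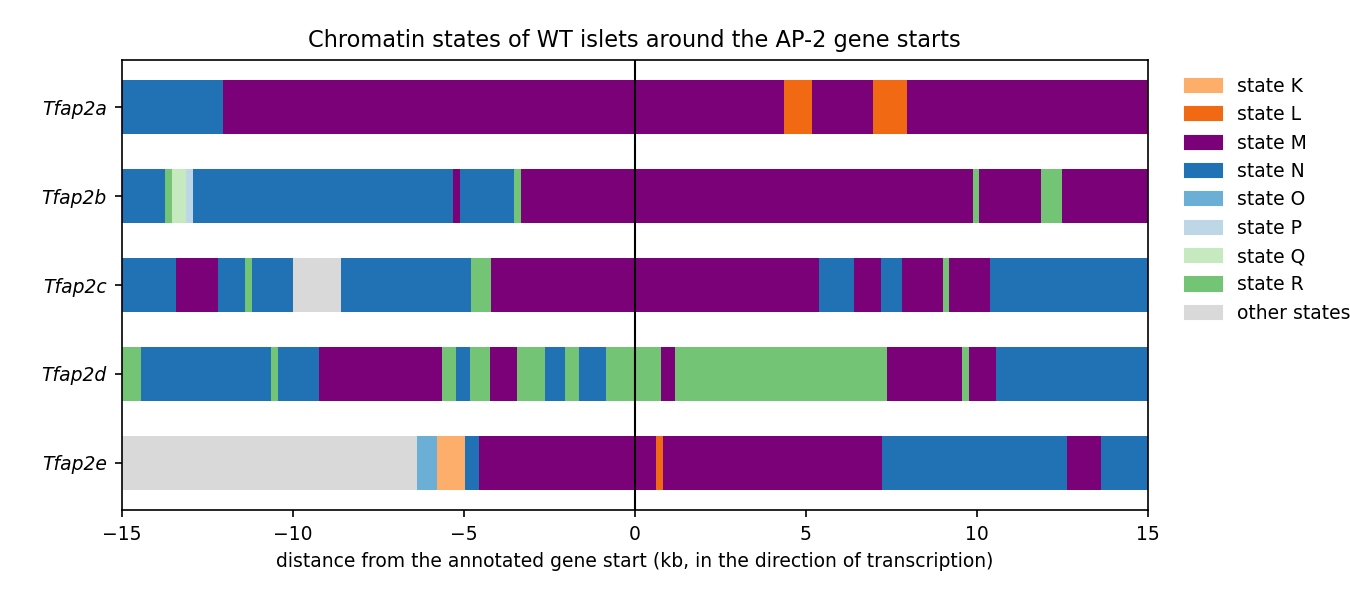
Chromatin states of WT islets within 15 kb of each AP-2 gene start, drawn in the direction of transcription, with 0 kb at the annotated start and 1 colour per state letter. State M spans the start of 4 genes, in runs of 5.2 to 16.4 kb, and Tfap2d starts in a patchwork of states R, N and M.

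In WT and HET islets the family was all but absent from the reads. The 5 genes together had 7 reads in 11 libraries with 174546233 counts in all. Tfap2a had 5 of these reads, 1 in each of 5 libraries, and Tfap2b and Tfap2c had 1 read each in WT at 8 weeks. Tfap2d and Tfap2e had 0 reads in all 11 libraries. The floor of 3 reads over a group came to 0.0578 CPM (counts scaled to library size with TMM factors) in WT at 8 weeks and 0.0973 CPM in WT at 25 weeks, and covers counting error only. In bulk islets, fewer cells that express a gene and less RNA per cell cannot be told apart.

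Total counts per library ranged from 4645393, in WT replicate 2 at 25 weeks, to 22925359. Eed itself was measured at 29.4 ± 4.89 CPM in WT and 14.4 ± 0.809 CPM in KO at 8 weeks (SD, n = 3 each), and at 23.2 ± 4.66 CPM (n = 3) and 14.9 ± 0.961 CPM (n = 2) at 25 weeks. Its HET levels were 18.3 ± 1.94 CPM (n = 3) at 8 weeks and 16.6 ± 0.408 CPM (n = 2) at 25 weeks. Insulin genes took 9.40 to 18.5% of counts in WT at 25 weeks, and 0.891 and 2.21% in the KO libraries of that age. Acinar enzymes set the KO libraries of 25 weeks apart from each other, with 286174 CPM summed over 7 markers in replicate 2 and 9408 CPM in replicate 3.

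At 25 weeks all 5 members were read in both KO libraries. Tfap2b had 338 and 485 reads (25.7 and 19.5 CPM) in KO replicates 2 and 3, against 0 reads in each of the 3 WT libraries. From the floor of 3 reads over the WT group, its KO level was at least 223-fold higher. Tfap2e had 50 and 97 reads (3.80 and 3.91 CPM) in KO and 0 in each WT library, at least 39.8-fold higher. For neither gene did KO and WT libraries overlap. The KO libraries, of unlike acinar content, were close to each other for Tfap2e only after scaling with TMM factors. Their 50 and 97 reads came from similar total counts, 17308262 in KO replicate 2 and 16565560 in KO replicate 3. The effect of acinar content on these values was not tested.

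Tfap2a had 28 and 67 reads (2.13 and 2.70 CPM) in KO at 25 weeks, against 1, 1 and 0 reads in WT, 38.6 times the WT level (95% counting interval 10.4 to 323.0), or 65.6 times without WT replicate 2 and 22.4 times without WT replicate 4. Tfap2c had 11 and 32 reads (0.836 and 1.29 CPM) against 0 in all 3 WT libraries, at least 11.6-fold higher. Tfap2d, whose annotated start lies outside state M, had 6 and 4 reads (0.456 and 0.161 CPM) against 0, at least 2.71-fold higher, or 1.66-fold without KO replicate 2. The KO libraries lay above all WT libraries for 5 of 5 members, as they did for 24.7% of the 18685 genes tested.

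On the count model, 4 members passed the filter on low counts (Tfap2d did not) and 3 were called higher at 25 weeks by edgeR (Tfap2a, Tfap2b and Tfap2e), beside 4.58% of all genes tested. That count repeats what the family was chosen on. Over all genes 856 were called higher and 378 lower (69.4% of calls higher), and with library size alone in place of TMM factors 805 and 79 (91.1%), with the median log2 fold change of all genes at 0.27 in place of 0.03. With replicate number as a block 1 member, Tfap2b, was called. Without KO replicate 2 or without KO replicate 3 at 25 weeks it was again Tfap2b alone, and Tfap2a was also lost without WT replicate 3 or 4 of that age. Within Tfap2a, on the other strand, lies the antisense gene Gm26688, which had 10 reads in each KO library of 25 weeks, 2 in KO at 8 weeks and 0 elsewhere. The library kit does not mark strand, so that reads from the overlap of these genes cannot be assigned to either.

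**Figure D2:**
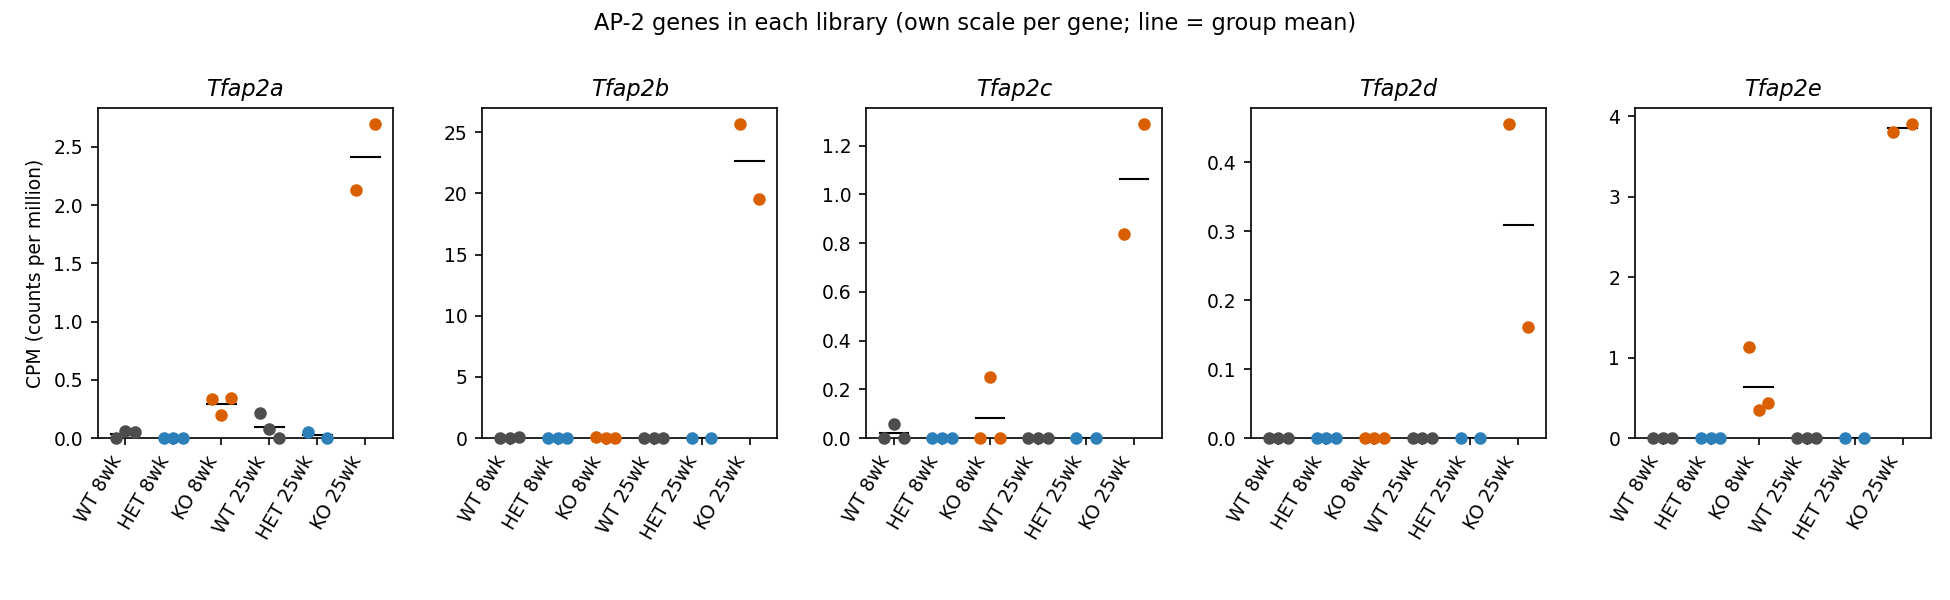
Level of each AP-2 gene in CPM in every library (points: grey WT, blue HET, orange KO; black line: group mean), with its own axis from 0 per gene. The KO libraries of 25 weeks stand above all others for all 5 genes, and at 8 weeks the KO libraries are above WT and HET for Tfap2a and Tfap2e.

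Per length of exon the members could be put in order in KO at 25 weeks. Tfap2b led with 3.57 ± 0.686 RPKM (CPM per kb of exon, SD, n = 2 libraries). Tfap2e followed with 1.85 ± 0.0366 RPKM and Tfap2a with 0.492 ± 0.0824 RPKM. Tfap2c had 0.289 ± 0.0871 RPKM and Tfap2d 0.158 ± 0.107 RPKM. Tfap2b, Tfap2e and Tfap2a were each above the next member in both libraries, whereas Tfap2c (0.227 and 0.351 RPKM) and Tfap2d (0.233 and 0.0825 RPKM) overlapped. Lengths are those of all annotated exons together, and transcripts in use may be shorter.

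Among the 1515 genes that start in state M, these KO levels rank Tfap2b at percentile 87.8, Tfap2e at 79.4, Tfap2a at 58.3 and Tfap2c at 49.0. Of these genes, 717 had at most 6 reads over all WT libraries, and among them Tfap2b held rank 25 from the top, Tfap2e 45, Tfap2a 117 and Tfap2c 163. Of the 869 genes tested that start in state M, 27.2% were called higher in KO at 25 weeks, against 14.2% of those in state L and 0.443% of those in the active start state A.

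At 8 weeks the family was low in KO, and another member led. Tfap2e had 24, 7 and 5 reads (1.14, 0.351 and 0.432 CPM) in KO replicates 1, 4 and 5 and 0 in each WT library, at least 11.8-fold higher, or 6.58-fold without KO replicate 1. That replicate also had the highest summed level of mesenchymal (213.0 CPM) and Schwann cell markers (54.2 CPM) in KO at this age, and their part in its AP-2 reads was not tested. Tfap2a had 7, 4 and 4 reads (0.332, 0.201 and 0.346 CPM) against 0, 1 and 1 in WT, 7.39 times the WT level (95% counting interval 1.72 to 66.6). For these genes all KO libraries lay above all WT libraries, as for 6.53% of the genes tested. Tfap2b had 2, 0 and 0 reads in KO and 0, 0 and 1 in WT. Tfap2c had 0, 5 and 0 reads in KO and 0, 1 and 0 in WT, and Tfap2d had none. No member was called at 8 weeks by edgeR, 2 had an unadjusted p under 0.05, and 1 (Tfap2e) was called by DESeq2 and with no filter on low counts. Of all genes tested, 0.428% were called higher and 7.87% had an unadjusted p under 0.05.

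Between the ages the make-up of the family in KO changed. Of AP-2 reads per kb of exon, Tfap2e made up 86.8, 60.7 and 74.6% in KO replicates 1, 4 and 5 at 8 weeks, from 33, 16 and 9 family reads. Tfap2b made up 59.9 and 51.9% at 25 weeks, from 433 and 685 reads, when Tfap2e stood at 26.9 and 31.6%. No library of one age overlapped with the other in the share of either gene, but the shares of a library make up a whole. The rise of Tfap2b, known when the family was chosen, therefore lowered the share of Tfap2e, although Tfap2e itself was higher at 25 weeks.

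Scaled to library size and pooled over libraries, Tfap2b was 570.3 times higher in KO at 25 than at 8 weeks (counting interval 157.4 to 4717), from 823 against 2 reads. Tfap2a was 8.78 times higher (5.06 to 16.3) and Tfap2e 5.66 times higher (3.91 to 8.39). For Tfap2c the ratio was 11.9 (4.73 to 38.6), and for Tfap2d, with 10 reads against 0, at least 4.62. The libraries of the 2 ages are from different animals, and the intervals leave out the spread between animals. The fitted difference between the KO effects of the ages called 0 members by edgeR, with 1 at an unadjusted p under 0.05, and 1 (Tfap2b) by DESeq2, beside 0.0910% of all genes called higher and 7.76% at that unadjusted p.

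**Figure D3:**
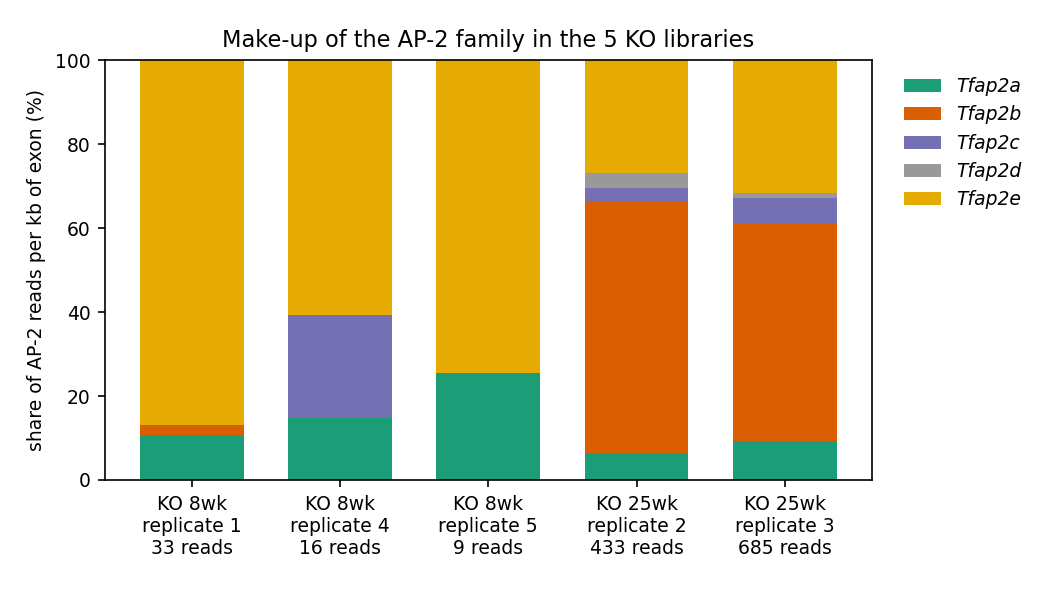
Share of each AP-2 gene in the family's reads per kb of exon (stacked bars, %) in the 5 KO libraries, with the number of family reads under each bar. Tfap2e is the largest part in the 3 libraries of 8 weeks (60.7 to 86.8%) and Tfap2b in both of 25 weeks (51.9 and 59.9%).

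HET islets served as a second control. They had 0 family reads in 3 libraries at 8 weeks and 1 read, of Tfap2a, in 2 libraries at 25 weeks. At 25 weeks all 5 members lay higher in every KO than in every HET library, as did 33.8% of the 18828 genes tested, and 3 (Tfap2a, Tfap2b and Tfap2e) were called, beside 5.41% of all genes. Against HET at 8 weeks Tfap2a and Tfap2e were called, beside 3.60% of all genes. With replicate number as a block, 0 members were called against HET at either age. These comparisons share their KO libraries with those against WT, on which the family was chosen. Here too the members passed the filter on low counts only through their reads in KO. Their calls against HET are therefore not separate support.

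HET against WT, and WT between the ages, were fitted as well. The members tested passed the filter on low counts only through their reads in KO, so that a count of 0 called was nearly fixed in advance. HET against WT called 0 of 4 members tested at 25 weeks and 0 at 8 weeks by edgeR, with 0 members at an unadjusted p under 0.05 and 0 called by DESeq2 at either age. Over all genes edgeR called 0 at both ages (0%), 210 (1.12%) and 2743 (14.6%) had an unadjusted p under 0.05 at 25 and 8 weeks, and DESeq2 called 3 and 407. WT at 25 against 8 weeks likewise called 0 members by edgeR, with 0 at an unadjusted p under 0.05 and 0 by DESeq2. Over all genes edgeR called 0 (0%), 1898 (10.2%) had an unadjusted p under 0.05, and DESeq2 called 139. All members were at 3 reads or fewer in each of these groups, so that a change was not detectable at this depth, and no fold is given.

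Other cell types could bring AP-2 transcripts into an islet preparation, so their markers were read in the same libraries. Over all genes 4.58% were called higher and 2.02% lower at 25 weeks. Of 7 markers of Schwann and other crest-derived cells, 0 were called in KO at 25 weeks by edgeR, which at these shares is not a result about these cells. Their summed level was 61.5 and 120.4 CPM in KO and 27.9, 39.7 and 103.1 CPM in WT, with no marker at 0. Of 6 mesenchymal markers 3 were called higher (Col1a1, Col1a2 and Pdgfra), with summed levels of 179.8 to 200.0 CPM against 62.2 to 81.7 CPM in WT. Of 6 duct markers 3 were called higher, with 574.0 to 652.3 CPM in KO against 257.0 to 309.4 CPM in WT, and of 7 acinar markers 1 (Prss1). Among 3 α cell markers 1 (Irx2) was called higher, and among 4 macrophage markers 1 (Ptprc). Of the δ, PP and endothelial markers 0 were called, and of 3 lymphocyte markers 1 was called lower (Cd79a). The summed level of 3 epidermal markers was at most 0.152 CPM in KO at 25 weeks, with Krt5 at 0 reads. Of 5 β cell markers 4 were called lower (Ins1, Iapp, Ucn3 and Slc2a2), with 13809 to 17095 CPM in KO against 121759 to 217838 CPM in WT. At 8 weeks 0 markers of any of these lists were called, beside 0.428% of all genes called higher. At that share a count of 0 is not a result about these cells. Mesenchymal markers then summed to 67.1 to 213.0 CPM in KO and 38.7 to 106.5 CPM in WT, and Schwann and crest-derived markers to 16.7 to 54.2 and 17.5 to 60.9 CPM. The part of these cells in the AP-2 values was not tested.

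Gene lists were read next, chosen like the family with earlier results of these data known. The list of AP-2 cofactors holds the CITED coactivators, the acetyltransferases Ep300 and Crebbp, the KCTD repressors and other partners. Of its 12 genes, all tested, 0 were called at 25 weeks and 0 at 8 weeks by edgeR, beside 4.58% of all genes called higher and 2.02% lower at 25 weeks and 0.428% higher at 8 weeks, shares at which a count of 0 in 12 is not a result about the cofactors. Their median log2 fold change was -0.09 and 0.09, beside 0.03 and 0.00 over all genes tested. Cited1, a coactivator of AP-2, had the largest value, with 4.80 ± 2.27 CPM in KO (n = 2) and 0.592 ± 0.433 CPM in WT (n = 3) at 25 weeks and a log2 fold change of 3.10 ± 0.93 (SE, edgeR adjusted p = 0.0800). It is named after its values were seen.

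Genes known as AP-2 targets moved in both directions. Of 16, 12 were tested, and 2 were called higher and 1 lower at 25 weeks, beside 4.58% and 2.02% of all genes. Both genes called higher, Kit and Esr1, start in state L, where 14.2% of the genes tested were called higher. Kit, a receptor tyrosine kinase of melanocytes and blood precursors, rose from 4.71 ± 1.67 CPM in WT (n = 3) to 64.4 ± 0.881 CPM in KO (n = 2). Its log2 fold change was 3.68 ± 0.36 (SE, edgeR adjusted p = 0.000443). Esr1, the oestrogen receptor α gene, rose by 3.04 ± 0.75 on the log2 scale (edgeR adjusted p = 0.0384), a call made in 8 of 17 alternatives and not with the replicate block. It was at 4.18 and 6.09 CPM in the KO libraries of 25 weeks. HET replicate 2 at 8 weeks reached 4.39 CPM, and the other HET libraries 0.139 to 0.599 CPM. Th, the rate-limiting enzyme of catecholamine synthesis, fell from 43.9 ± 5.66 to 10.1 ± 2.27 CPM (log2 fold change -2.17 ± 0.37, edgeR adjusted p = 0.00723), a call lost without KO replicate 3 at 25 weeks (-1.95). The list's median log2 fold change was 1.18 at 25 weeks. At 8 weeks 0 of the 12 were called by edgeR, beside 0.428% of all genes higher, a share at which this is not a result about the targets.

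Of 14 neural crest regulators, the group that AP-2α and AP-2β work with in the embryo, 13 were tested and 5 were called higher at 25 weeks, beside 4.58% of all genes. Of the 5, Zic1 and Pax3 start in state M and Twist1, Msx1 and Sox9 in state L. In these states 27.2% and 14.2% of the genes tested were called higher. Zic1, a zinc finger factor of the neural plate border, had 30.0 ± 1.25 CPM in KO and 1 read in the WT libraries of 25 weeks together, 915.7 times the WT level (95% counting interval 164.0 to 36199). That read is in WT replicate 3, without which the fold was at least 174, and without WT replicate 4 it was 531.4. Pax3, a paired-box factor of crest and muscle precursors, had 11.1 ± 0.705 CPM in KO and 0 reads in WT, at least 112.0-fold higher. Twist1, a helix-loop-helix factor of mesenchyme, rose by 6.27 ± 1.01 on the log2 scale (edgeR adjusted p = 0.00503), by 5.55 without WT replicate 3 and by 7.80 without WT replicate 4, and the homeobox gene Msx1 by 4.29 ± 0.53 (edgeR adjusted p = 0.00153). Sox9, which is also a duct marker, was the other gene called and lies outside the naming rule. It had 24.0 ± 4.12 CPM in KO and 2.84 ± 2.63 CPM in WT (edgeR adjusted p = 0.0189). The study reported no reactivation of Sox9 in βEedKO islets, without showing the data. The source of this difference was not tested. Sox10 and Foxd3, which specify migrating crest and glia, had log2 fold changes of 1.83 ± 1.34 and 3.41 ± 1.26 (edgeR adjusted p = 0.501 and 0.151). The list's median was 3.41, or 2.98 with genes at 0 in one group put at their bound.

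Of these regulators, 3 were also called at 8 weeks, beside 0.428% of all genes. The share called higher was 2.65% among genes that start in state M and 1.89% in state L. Twist1 had 4.86 ± 1.57 CPM in KO and 0.0581 ± 0.101 CPM in WT (n = 3 each), Zic1 1.66 ± 0.170 and 0.0194 ± 0.0336 CPM, and Msx1 6.57 ± 2.48 and 0.950 ± 0.274 CPM. They rest on 240, 88 and 320 reads over the KO group. HET replicate 2 at 8 weeks, which had no AP-2 read, held 43 reads of Twist1 and 32 of Zic1, with 126.9 CPM of mesenchymal markers. Over all lists 5 genes were called at 8 weeks, and 0 with replicate number as a block. That count fell to 1 on leaving out KO replicate 4 or 5 or any WT replicate of 8 weeks, or KO replicate 2 or 3 or WT replicate 2 of 25 weeks, and to 3 without WT replicate 3 or 4 of 25 weeks.

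Of 11 amacrine and inhibitory neuron genes, all tested, 5 were called higher and 1 lower at 25 weeks, beside 4.58% and 2.02% of all genes. Those called higher start in state M (Slc32a1, Lhx5, Slc6a5 and Gad2) or L (Pax2), where the shares called higher were 27.2% and 14.2%. Slc32a1, the vesicular transporter of GABA and glycine, had 22.0 ± 2.74 CPM in KO and 0 reads in WT, at least 220.0-fold higher. The LIM homeobox gene Lhx5 and the paired-box gene Pax2 had 0 reads in WT as well and were at least 100.1-fold and 116.6-fold higher, and Pax2 was not called without KO replicate 2 or 3 at 25 weeks. Slc6a5, the neuronal glycine transporter, had 15.7 and 59.0 CPM in the KO libraries and 2 reads in WT, 677.8 times the WT level (95% counting interval 187.3 to 5602). Both reads are in WT replicate 3, without which the fold was at least 257, and it was 393.4 without WT replicate 4 and 241.3 without KO replicate 3. Gad2, which makes GABA, rose by 6.48 ± 1.01 on the log2 scale (edgeR adjusted p = 0.00451), while its paralogue Gad1 (outside the naming rule), which β cells express, fell from 194.8 ± 26.6 to 19.2 ± 6.05 CPM (edgeR adjusted p = 0.000170). The median of the list was 6.48, or 2.76 with genes at 0 put at their bound. Gad2 (5.77 ± 4.50 against 0.0934 ± 0.0567 CPM) and Slc6a5 (6.85 ± 5.44 against 0.0176 ± 0.0306 CPM) were also called at 8 weeks, beside 0.428% of all genes. In state M, where both start, that share was 2.65%.

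The remaining lists follow other tissues of AP-2 genes. Of 10 trophectoderm genes 6 were tested and 2 called higher at 25 weeks, beside 4.58% of all genes. Both, Gata3 and Gata2, start in state M, where the share was 27.2%. Gata3 had 13.8 ± 3.72 CPM in KO and 1 read in WT, 400.2 times the WT level (95% counting interval 71.5 to 15839). That read is in WT replicate 3, without which the fold was at least 75.8, and without WT replicate 4 it was 232.3. Gata2 rose by 3.86 ± 0.31 on the log2 scale, from 3.09 ± 0.538 to 46.1 ± 6.53 CPM (edgeR adjusted p = 0.000170). Of 11 epidermal genes 7 were tested and 1 was called higher, beside 4.58% of all genes and 14.2% of those in state L, where it starts. It was Grhl3, a grainyhead factor of the skin barrier, which rose from 0.429 ± 0.201 to 3.84 ± 2.21 CPM (edgeR adjusted p = 0.0370). That call was made in 9 of 17 alternatives and not with the replicate block. Of 6 germ cell precursor genes and 6 distal nephron genes, 3 of each were tested and 0 called by edgeR. At the shares over all genes, 0 in 3 is not a result about these lists. Median log2 fold changes were 4.47 (3.15 with bounds) for trophectoderm, 0.52 for epidermal, 0.23 for germ cell precursor and -2.15 for distal nephron genes. None of these lists held a gene called at 8 weeks, beside 0.428% of all genes called higher, which is likewise not a result about them. Together 66 of 83 listed genes were tested, with 15 called higher and 2 lower at 25 weeks and 5 and 0 at 8 weeks. Over all genes the shares were 4.58% and 2.02% at 25 weeks and 0.428% and 0.00535% at 8 weeks.

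**Figure D4:**
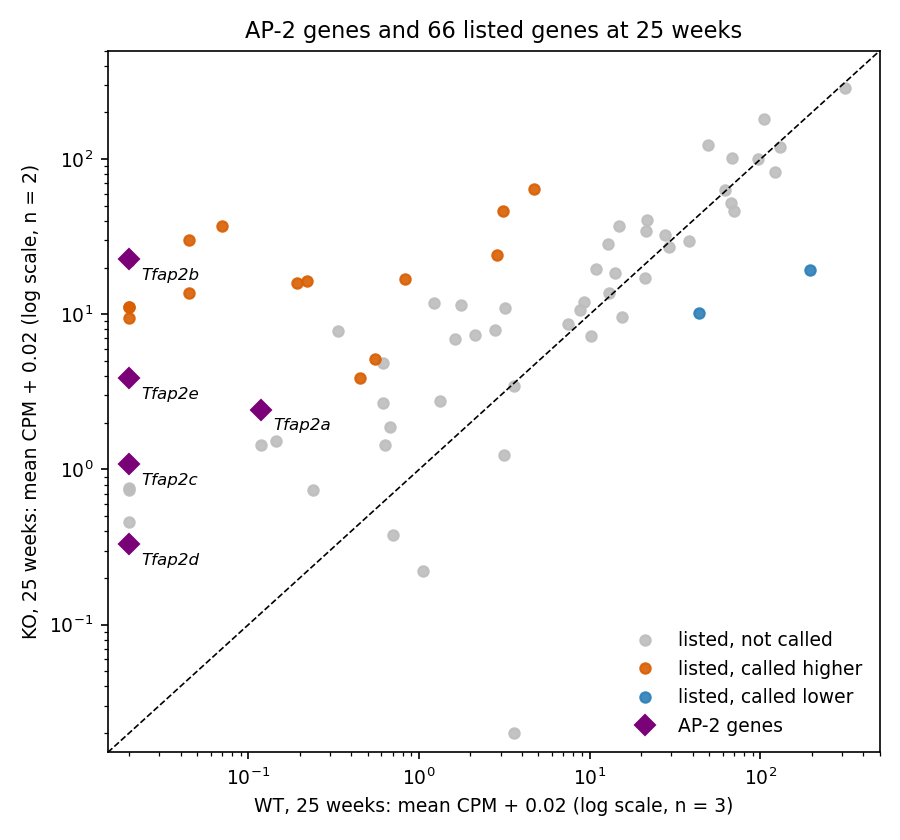
Mean CPM of the 66 listed genes tested (circles: orange called higher, blue called lower, grey not called) and of the 5 AP-2 genes (diamonds) in WT (horizontal, n = 3) and KO islets (vertical, n = 2) at 25 weeks, both with 0.02 added and on log scales. The AP-2 genes lie at the left edge, at or near 0 in WT, as do Pax2, Lhx5, Pax3 and Slc32a1 (whose point the Tfap2b diamond covers), and the dashed line marks equal levels.

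Genes beside the members on the chromosome were read as well. Of the genes that start within 500 kb of a member's start and are not members themselves, 36 passed the filter. Of these, 1 was called higher and 1 lower at 25 weeks, counts near the 4.58% and 2.02% of all genes and no result about the neighbours. Both lie near Tfap2c. Fam210b, at 204 kb, fell from 84.9 ± 16.7 to 26.7 ± 5.70 CPM (edgeR adjusted p = 0.00340). Rbm38, an RNA-binding protein gene at 470.9 kb, rose from 2.32 ± 0.125 to 6.10 ± 0.191 CPM (edgeR adjusted p = 0.0433), a call made in 4 of 17 alternatives. Rbm38 also stood at 5.63 CPM in HET replicate 2 at 8 weeks, and at 1.46 to 2.40 CPM in the other HET libraries. Around Tfap2e 21 genes were tested, the nearest 17.2 kb away (Ncdn, log2 fold change 0.11 ± 0.26), and 0 were called at 25 weeks by edgeR. At 8 weeks 1 of them was called there, the collagen gene Col8a2 at 449.4 kb (5.37 ± 2.87 against 0.710 ± 0.168 CPM, edgeR adjusted p = 0.0442), in 3 of 17 alternatives. Over all genes 0.428% were called higher at that age. Around Tfap2b and Tfap2d, 10 other genes were counted within 500 kb of each start and 0 passed the filter. Tfap2b, 105.9 kb from Tfap2d, did pass it and is left out here as a member.

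The genes whose log2 CPM was most like that of each member over the 16 libraries were found by Pearson's r, as a description. For Tfap2b they were Hoxc11, Gm53 and Dlx4os (r = 0.999, 0.998 and 0.997), each at 0 reads in all WT and HET libraries and at 1 read in KO at 8 weeks. For Tfap2e they were Sp8, Lin28b and Barhl2 (r = 0.998, 0.996 and 0.994), with 99, 70 and 31 reads in KO at 8 weeks. Ferd3l, Tbx20 and Dlx3 were nearest to Tfap2c (r = 0.985, 0.982 and 0.969), and Sdc2, Nkx2-3 and Gdf11 to Tfap2a (r = 0.978, 0.966 and 0.963). Between members r ran from 0.833 (Tfap2c and Tfap2e) to 0.943 (Tfap2a and Tfap2e). These values rest largely on the 2 KO libraries of 25 weeks and on zeros that many of these genes share elsewhere, although Sdc2 had 5502 reads in WT and HET libraries. With Spearman's rho 4 of the 12 genes were again among the nearest. Over the 12 genes so found, 8 start in state M, 3 in state L and 1 in state A.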

How the data were processed

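Bulk RNA-seq of whole islets gave 16 libraries, grouped by the genotype and age in their labels. The authors deposited raw counts per gene, made per the labels and methods with TopHat2 2.0.13 on GRCm38 and featureCounts (Subread 1.5.0-p1) on Gencode annotation, and a chromatin segmentation of WT islets in state letters of 200 bp bins over 19 autosomes with replicates averaged. All count columns were used (0 left out). Of 47937 counted genes, 47224 matched the later Gencode release used here for positions and lengths.

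Counts were fitted with edgeR 4.0.16 (quasi-likelihood test, TMM factors, filterByExpr by group, Benjamini-Hochberg adjustment, threshold 0.05) in R 4.3.3, with limma 3.58.1. WT and KO were compared in 1 fit of 11 libraries (18685 genes) and HET in 1 fit of 16 libraries (18828 genes). DESeq2 1.42.0, other scalings, no filter, the replicate block and leaving out each library were alternatives. The scripts were tested on simulated data. Where a group had 0 reads, folds were set against 3 reads over that group. Ratios pooled over groups that both had reads were given an exact 95% counting interval, which is not printed where a library was left out. Floors and intervals cover counting error only. The study's methods call the libraries biological replicates, made from islets of few animals each and of more in KO at 25 weeks. No 2 libraries agreed within sampling noise.

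Members and gene lists were chosen with earlier results of these data known. Named from each of 8 lists were up to 4 genes called at 25 weeks by size of log2 fold change and up to 2 called at 8 weeks, together with neighbours within 500 kb and the 3 genes most like each member. The same replicate numbers occur in WT and KO without a stated litter or day. Deviations of the 4 same-numbered pairs from their group means correlated at 0.163 to 0.457. Differently numbered WT and KO pairs ran from -0.528 to 0.450. With 2 KO libraries at 25 weeks, a WT library correlates with them at equal size and opposite sign. A pairing is thus not established, and blocked values are given where they change a call.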

Additional observations from a re-analysis of the deposited data

Results flagged for a closer look

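Among the listed genes, 2 differed between ages in their KO effect by the test of the difference itself, beside 0.198% of all genes tested. For Kit the log2 effect was larger at 25 than at 8 weeks by 2.94 ± 0.47 (SE, edgeR adjusted p = 0.0422). Kit stood at 14.6 ± 5.01 CPM in KO and 8.77 ± 2.21 CPM in WT at 8 weeks (SD, n = 3 each), and at 64.4 ± 0.881 CPM (n = 2) and 4.71 ± 1.67 CPM (n = 3) at 25 weeks. For Gata2 the difference was 3.77 ± 0.40 (edgeR adjusted p = 0.00579). Gata2 stood at 3.51 ± 0.530 and 3.28 ± 0.904 CPM in KO and WT at 8 weeks, and at 46.1 ± 6.53 and 3.09 ± 0.538 CPM at 25 weeks.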

How the results depend on the processing

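The 4 fitted AP-2 genes and the 18 other genes under the naming rule for lists and called neighbours kept their direction in every alternative run. The alternatives were not run for Cited1, Sox9, Sox10, Foxd3 and Gad1, and Tfap2d did not pass the filter. AP-2 genes called in KO against WT at 25 weeks numbered 3, and 1 with the replicate block, and 1 to 3 on leaving out single libraries. At 8 weeks 0 were called, and 1 with DESeq2 or with no filter on low counts, and the difference between ages called 0, and 1 with DESeq2. Against HET, 3 were called at 25 weeks and 0 with the replicate block, and 2 at 8 weeks, 1 with library size alone and 0 with the replicate block. Over all genes 1234 were called at 25 weeks, 2093 with DESeq2 and 392 to 1609 without single libraries, and 81 at 8 weeks, 393 with DESeq2, 137 with no filter, 0 with the replicate block and 18 to 135 without single libraries. Listed genes called at 8 weeks numbered 5, 3 in the fit of all 6 groups, 0 with the replicate block and 1 to 6 without single libraries. Of the 12 genes most like a member, 4 were shared with Spearman's rho. The causes were not tested. No member has enough reads in WT or HET for a fold between those groups to be given.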
